A study of Bos taurus with 18 samples.

Results

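The 2 negative control (NC) groups of a bovine embryo experiment were compared, the NC mimic and the NC inhibitor. Their members were taken from the sample labels and comprised 6 of the 18 sequenced pools, 3 for each group. Every pool held 10 whole blastocysts collected at 8 days post insemination (dpi), from slaughterhouse oocytes of 2 to 4 mm follicles that were matured in vitro for 22 h. The additive was present during maturation only: NC mimic, NC inhibitor, miR-34c mimic (5 pools), miR-34c inhibitor (3 pools) or, in the control group (4 pools), water. The libraries hold the 5′ ends of mRNA and came from a modified Smart-seq3xpress protocol, which works on little RNA.

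A miRNA mimic is an RNA that stands in for a mature miRNA, which guides Argonaute proteins to messenger RNAs that pair with its seed, and an inhibitor is a strand that pairs with a miRNA and blocks it. NC versions carry a sequence without an intended target and are added so that the response to any short RNA can be told from the response to the miRNA. In the study's methods the NC inhibitor is the reverse complement of the NC mimic strand that is given, so both agents share 1 sequence and its complement. A blastocyst is the embryo stage with an inner cell mass, which forms the fetus, and an outer trophectoderm, which forms the placenta. Pools of whole blastocysts hold both, and fewer cells of a type cannot be told apart from less RNA per cell. The table gives genes by Ensembl identifier without a symbol, so gene functions and the defining markers of these cells were not checked.

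The 6 NC libraries held 2386734, 2737012 and 3658224 counts with NC mimic and 3564950, 3623194 and 2568629 with NC inhibitor, within the 2063863 to 4071640 of all 18. A count of 0 allows up to 3 counts, a limit for counting error only. Counts were found for 14616 to 15442 genes per library with NC mimic and for 14819 to 15429 with NC inhibitor. The labels name neither a batch nor separate cultures, so the spread between pools may be technical in part, and a treatment cannot be told apart from an unrecorded day of culture. Each value below is in CPM (counts scaled to a fixed total per library) with TMM factors over the 18 libraries unless stated. These factors were no higher than 1.02 with NC mimic and no lower than 1.09 with NC inhibitor, the highest of the 5 treatments.

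With the 6 NC pools analysed alone, 566 of 10615 genes tested (5.33%) were called different between blastocysts of the NC mimic and NC inhibitor groups. The groups were chosen for least spread, so this count is a description. Of the 566 genes, 419 were higher with NC mimic (3.95%) and 147 were lower (1.38%). A gene was called differentially expressed (DE) at an adjusted p below 0.05 (edgeR's quasi-likelihood test with Benjamini-Hochberg adjustment) together with a log2 fold change of 1 or more in size. By the adjusted p alone the count was 2942 genes (27.7%). Without any test, the 3 NC mimic pools lay above the 3 NC inhibitor pools in 2499 genes (23.5%) and below them in 1822 (17.2%), including 407 of the 419 genes called higher and 138 of the 147 called lower.

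The same contrast gave no DE gene (0%) with all 18 pools in 1 fit, where 11082 genes were tested and the spread was estimated over the 5 treatments together. There edgeR's quasi-likelihood test gave 0.0969 as the lowest adjusted p, and 1174 genes had an unadjusted p below 0.05 (10.6%). The fold changes barely moved between the fits. Among the called genes the median log2 fold change was 1.27 for those higher and -1.30 for those lower in the 6-pool fit, and 1.29 and -1.29 in the 18-pool fit. The standard error was what differed, with a median over the called genes of 0.283 in the 6-pool fit and 0.554 in the 18-pool fit. The 2 groups were picked with their small spread already known, and the 6-pool test uses that spread as its error. P-values of the 6-pool fit may therefore be too small. Its calls and adjusted p-values, here and below, are given as a description.

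These groups were chosen as the 2 with the least spread between pools, and the values behind that choice are given as a description. The biological coefficient of variation (the square root of edgeR's common dispersion, a typical relative spread of a gene between pools) was 0.135 with NC mimic and 0.109 with NC inhibitor. Pools of the control group gave 0.316, those of miR-34c mimic 0.295 and those of miR-34c inhibitor 0.432. It was 0.122 over the 6 NC pools and 0.288 over all 18. The 6 pairs of pools within the NC groups differed by 2.31 to 8.10 times the counting noise (chi-square per degree of freedom), and each pool was counted as 1 replicate. By this measure 1 pool in each group differed most from its other 2. Within NC mimic the pairs with replicate 3 gave 7.10 and 8.10 and the other pair 2.37. Without this pool the coefficient for NC mimic was 0.0809, and the 6-pool count rose from 566 to 851 genes. Within NC inhibitor the pairs with replicate 1 gave 5.13 and 6.70 and the other pair 2.31. Without that pool the coefficient for NC inhibitor was 0.0699, and the 6-pool count was 514. By Euclidean distance in log2 CPM replicate 1 did not stand apart in this way. Replicates 1 and 2 were 42.1 apart, replicates 2 and 3 42.2, and replicates 1 and 3 48.9.

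**Figure D1:**
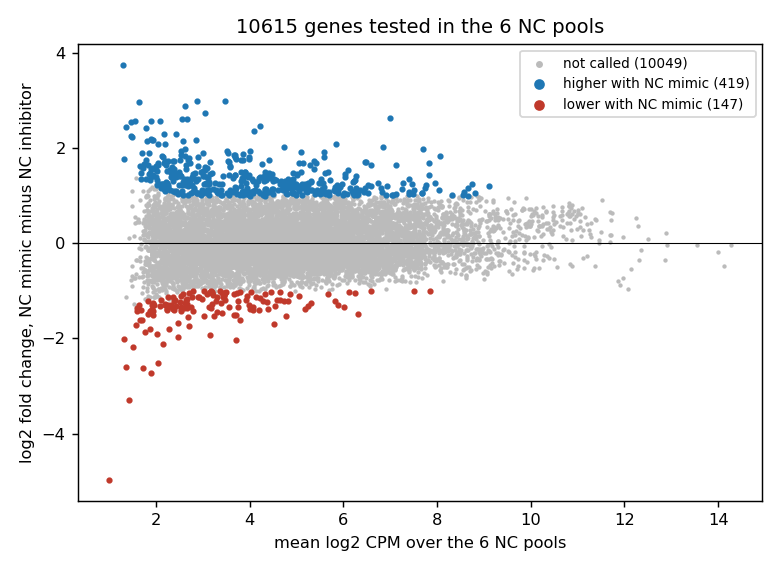
Log2 fold change of NC mimic minus NC inhibitor (vertical axis) against the mean log2 CPM over the 6 NC pools (horizontal axis), 1 point for each of the 10615 genes tested. Blue points are the 419 DE genes higher with NC mimic, red points the 147 lower, and most lie close to the 2-fold limit and at low to middle levels.

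Most of the called differences were small. Of the 566 DE genes, 420 had an absolute log2 fold change below 1.5, and 32 of those higher and 10 of those lower with NC mimic changed at least 4-fold. The median absolute log2 fold change over all genes tested was 0.337. DE genes made up 9.97% of the 2477 genes with a mean below 10 CPM (167 higher, 80 lower), 4.31% of the 6351 genes between 10 and 100 CPM (210 higher, 64 lower) and 2.52% of the 1787 genes at 100 CPM or more (42 higher, 3 lower). The excess of genes higher with NC mimic depended in part on the scaling. With library totals in place of TMM factors, 315 genes were higher and 228 lower, so 58.0% were higher in place of 74.0%, and the median log2 fold change of all genes tested shifted from 0.00 to -0.11.

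The 2 genes with the largest increase and the 2 with the largest decrease, among DE genes with at least 50 counts on average and no overlap between the groups, were named. ENSBTAG00000021829 was at 347, 386 and 190 CPM with NC mimic and at 39.3, 47.1 and 62.2 CPM with NC inhibitor, 308 ± 104 against 49.6 ± 11.6 CPM (SD, n = 3). The lowest NC mimic pool was thus above the highest NC inhibitor pool, and the log2 fold change was 2.63 ± 0.21 (SE, adjusted p = 1.19e-07, edgeR's quasi-likelihood test). In the other treatments the same gene spread across this whole gap, at 48.8, 326, 407 and 550 CPM in the control pools, 507, 49.0, 332, 454 and 546 CPM with miR-34c mimic and 15.5, 516 and 131 CPM with miR-34c inhibitor. With those pools in the fit the log2 fold change was 2.64 ± 0.93 (adjusted p = 0.462, edgeR). Of the other 12 pools, 3 were as low as the NC inhibitor pools and 8 were above the NC mimic mean.

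ENSBTAG00000054844 was at 49.1, 47.9 and 27.8 CPM with NC mimic and at 6.13, 10.3 and 5.36 CPM with NC inhibitor. The groups did not overlap, and the log2 fold change was 2.45 ± 0.27 (SE, adjusted p = 4.15e-06 by edgeR's quasi-likelihood test, 0.355 in the 18-pool fit). The other 12 pools ranged from 8.20 to 50.1 CPM with a median of 21.0, so 2 of the 3 NC inhibitor pools were below all other treatments.

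Among the genes lower with NC mimic, ENSBTAG00000018463 was at 2.91, 6.53 and 8.10 CPM with NC mimic and at 30.1, 21.9 and 22.2 CPM with NC inhibitor. The log2 fold change was -2.03 ± 0.28 (SE, adjusted p = 4.04e-05 by edgeR's quasi-likelihood test, 0.397 in the 18-pool fit). Here the NC inhibitor pools were at the upper end of the series, since the other 12 pools ranged from 2.04 to 21.9 CPM. ENSBTAG00000003586 was at 6.66, 11.6 and 17.3 CPM with NC mimic and at 48.0, 35.8 and 35.0 CPM with NC inhibitor, a log2 fold change of -1.70 ± 0.25 (SE, adjusted p = 5.48e-05 by edgeR's quasi-likelihood test, 0.462 in the 18-pool fit). The other pools of this gene covered both NC groups, from 4.87 to 54.6 CPM. The calls of all 4 genes held with each NC pool left out in turn and ended in the 18-pool fit.

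**Figure D2:**
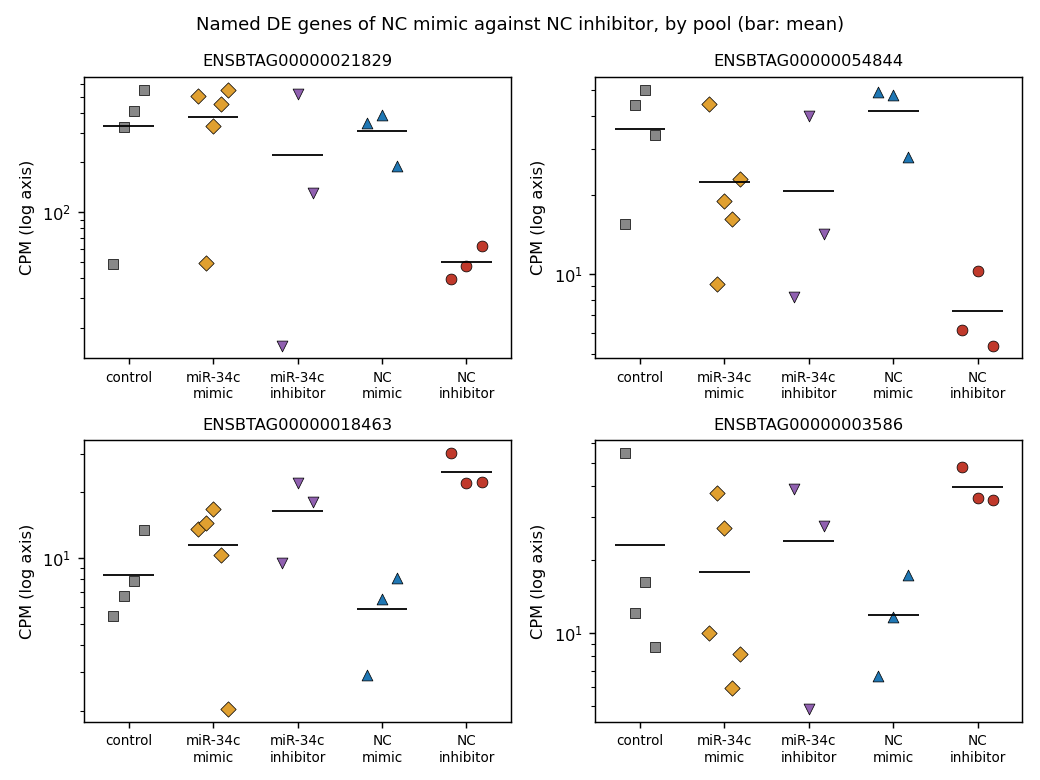
CPM (log axis) of the 2 genes with the largest increase and the 2 with the largest decrease among DE genes with at least 50 counts on average and no overlap between the NC groups, 1 point per pool in each of the 5 treatments, with the mean of the treatment as a bar. The NC mimic and NC inhibitor pools do not overlap in any of the 4 genes, while the pools of the other 3 treatments spread across most of the gap between them.

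With 1 surrogate variable (an estimated axis of variation shared by many genes) added to the 18-pool fit, 2 genes were DE between the NC groups, both among the 566. They were named after their values were seen. ENSBTAG00000018373 was at 25.4, 21.8 and 24.6 CPM with NC mimic, at 66.1, 50.2 and 54.0 CPM with NC inhibitor and between 34.7 and 61.0 CPM in the other 12 pools. The 3 NC mimic pools were thus the lowest of the 18, and the log2 fold change was -1.25 ± 0.20 in that fit (adjusted p = 0.00909, edgeR) and -1.26 ± 0.17 in the 6-pool fit. ENSBTAG00000005714 was at 47.0, 39.9 and 51.8 CPM with NC mimic and at 20.7, 27.5 and 20.4 CPM with NC inhibitor, while 11 of the other 12 pools were at or below 36.1 CPM and miR-34c inhibitor replicate 1 was at 54.0. Its log2 fold change was 1.80 ± 0.26 in the fit with the surrogate variable (adjusted p = 0.00297, edgeR) and 1.00 ± 0.18 in the 6-pool fit, at the limit of 1. Its call in the 6-pool fit held in 2 of 6 fits with 1 pool left out. It ended with library totals (0.90), median-of-ratios factors (0.97), voom with quality weights (0.89), no filter (0.96), DESeq2 (0.97) and thinning to 1 depth (0.91). In the fit with the surrogate variable the 4 genes named before had log2 fold changes of 0.89, 1.60, -2.16 and -0.63, in the order of their description, and 0 of them were DE.

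Genes present in one NC group and nearly absent from the other were few. With at least 10 counts in each pool of one group and at most 3 in each pool of the other, 1 gene was found for NC mimic and 3 for NC inhibitor, and with at least 20 counts there were 0 for either. The deposited table listed 27270 genes. These limits are on raw counts and were not matched for depth, with a median of 2737012 counts per library for NC mimic and 3564950 for NC inhibitor. ENSBTAG00000053040 had 11, 16 and 10 counts with NC mimic and 1, 2 and 2 with NC inhibitor. ENSBTAG00000000603 had 12, 13 and 10 counts with NC inhibitor and 3, 2 and 2 with NC mimic. ENSBTAG00000001326 had 18, 11 and 10 counts with NC inhibitor and 3, 1 and 3 with NC mimic. In the other 12 pools these 3 genes ran from 0 to 27, from 0 to 11 and from 1 to 20 counts, so neither state was particular to an NC group. The fourth, ENSBTAG00000008389, is described with the genes of the NC inhibitor group.

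Of the 566 genes, the 564 tested in the 18-pool fit were then followed in the 12 pools that had not been used to choose them. For every gene the level of a pool was placed on a line on which the mean of the NC inhibitor pools is 0 and the mean of the NC mimic pools is 1 (log2 CPM), and the median over the genes was taken. Over the 419 genes higher with NC mimic, the control pools were at 0.159, 1.23, 1.102 and 1.33. The miR-34c mimic pools were at 1.34, -0.001, 0.909, 1.16 and 1.29, and the miR-34c inhibitor pools at -0.323, 1.43 and 0.414. Among these 12 pools, 8 were therefore nearer to NC mimic, with 7 past its mean, and 4 were nearer to NC inhibitor, with 2 past its mean. Pools of 1 treatment lay on both sides in each of the 3 treatments.

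Over the 145 genes lower with NC mimic that were tested in all 18 pools, the same line gave 0.381, 0.930, 0.926 and 1.04 for the control pools. It gave 0.984, 0.297, 0.611, 0.875 and 1.09 with miR-34c mimic and 0.0928, 1.03 and 0.365 with miR-34c inhibitor. Again 8 pools were nearer to NC mimic and 4 to NC inhibitor, 3 were past the NC mimic mean and 0 past that of NC inhibitor. When each NC pool was left out of the choice of genes and placed afterwards, NC mimic pools fell at 1.09, 1.11 and 0.624 and NC inhibitor pools at 0.0194, 0.0823 and 0.199 for the genes higher with NC mimic. For the genes lower with NC mimic they fell at 0.772, 0.878 and 0.469 and at 0.285, 0.167 and 0.266. NC mimic replicate 3 was in both sets the NC mimic pool nearest to NC inhibitor.

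**Figure D3:**
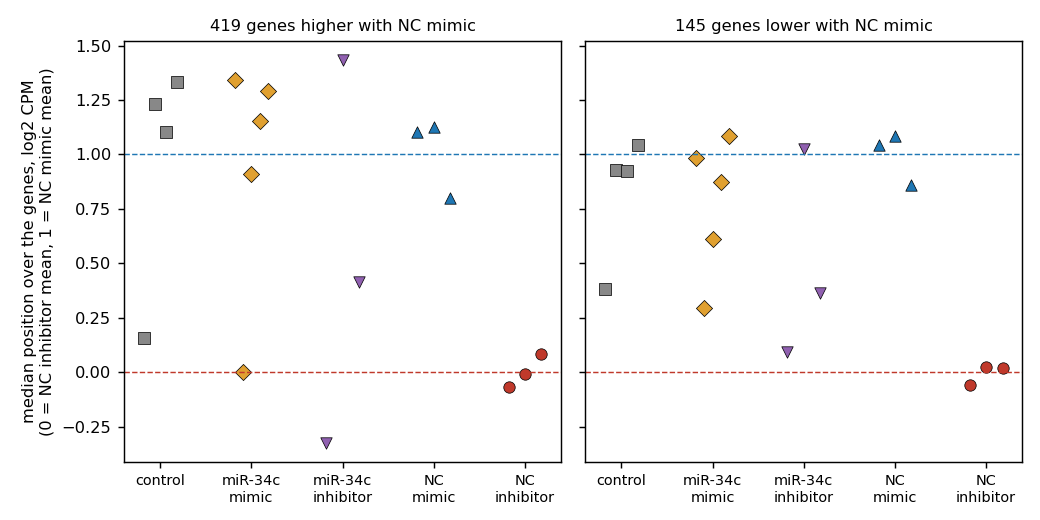
Median position of each pool over the 419 genes higher (left) and the 145 genes lower (right) with NC mimic, on a scale where 0 is the NC inhibitor mean and 1 the NC mimic mean (log2 CPM), 1 point per pool. The NC pools were used to choose the genes, so their own positions are a description. Each of the other 3 treatments reaches from near 0 or below 0.4 to about 1 or above.

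Expressed as a share of all counts, the 419 genes took 2.65%, 2.69% and 1.97% in the NC mimic pools and 1.00%, 1.08% and 1.18% in the NC inhibitor pools. The control pools were at 1.19%, 3.02%, 2.68% and 3.19%, and the other 8 pools ran from 0.762% to 3.53%. Control replicate 1 was thus close to NC inhibitor and the other 3 control pools were at or above NC mimic. Both NC means lay within the range of the 4 control pools for 144 of the 419 genes (34.4%) and 25 of the 145 (17.2%), against 48.2% of all genes tested. That depended on 1 pool, since without control replicate 1 the counts were 20 (4.77%) and 4 (2.76%), against 18.9% of all genes. Within the range of all 12 other pools the counts were 359 (85.7%) and 95 (65.5%), against 90.3% of all genes tested. The called genes were chosen for a wide gap between the NC means, so lower shares than over all genes follow in part from that choice.

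In principal component analysis of log2 CPM, the first component (PC1) carried 50.2% of the variance and the second (PC2) 7.95%. The NC inhibitor pools had PC1 scores of -44.3, -43.9 and -39.8 and the NC mimic pools of 4.16, 9.12 and -13.1, which do not overlap. NC inhibitor had the lowest treatment mean on this component, -42.7 (SD 2.49), and miR-34c inhibitor the next lowest, -12.6. Outside NC inhibitor, only miR-34c inhibitor replicate 1 and miR-34c mimic replicate 2 scored lower than its pools. The NC mimic mean of 0.0496 was at neither end. The control pools had scores of -36.6, 36.8, 29.9 and 44.8, the miR-34c mimic pools of 44.7, -44.6, 16.5, 32.4 and 41.8, and the miR-34c inhibitor pools of -69.0, 51.7 and -20.6. On PC2 the NC mimic pools were at 33.9, 23.0 and 10.1, of which 33.9 and 23.0 were the highest of all 18, and the NC inhibitor pools at -9.36, 5.87 and 11.7.

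**Figure D4:**
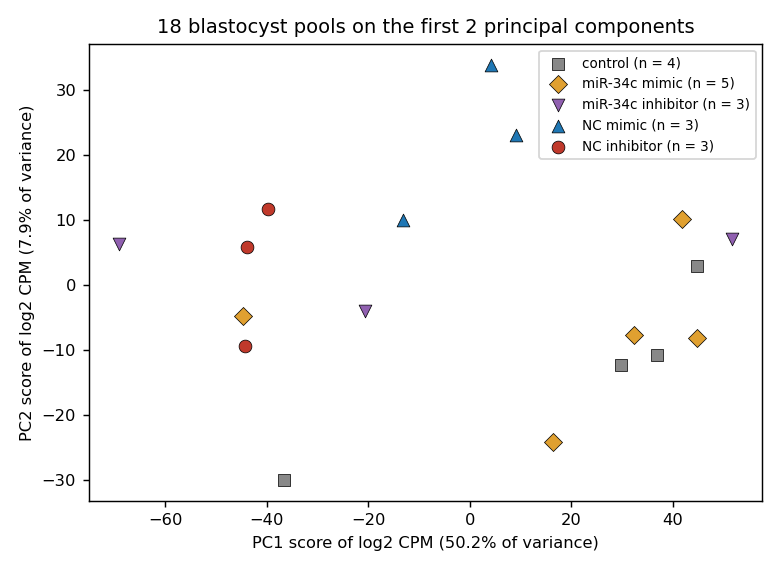
Scores of the 18 pools on PC1 (horizontal, 50.2% of the variance) and PC2 (vertical, 7.95%) of log2 CPM, 1 point per pool with a shape and colour for each treatment. The 3 NC inhibitor pools lie close together near -40 on PC1 beside miR-34c mimic replicate 2, and the NC mimic pools lie near the middle of PC1 and high on PC2.

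Distances between pools over all genes tested in the 18-pool fit gave a similar picture. The median Euclidean distance in log2 CPM was 48.5 within NC mimic and 42.2 within NC inhibitor, against 76.8 within control, 65.9 within miR-34c mimic and 88.3 within miR-34c inhibitor. Between the NC groups it was 70.3 (55.4 to 77.6). This median lay within the range of the medians within the other 3 treatments. From NC inhibitor the median distance was 92.7 to control, 88.7 to miR-34c mimic and 64.8 to miR-34c inhibitor. From NC mimic it was 71.9, 69.7 and 75.9 in the same order. Small distances within the NC groups follow from their choice for least spread, so that each NC pool had its nearest pool in its own group is a description. Outside its group, every NC mimic pool was nearest to miR-34c inhibitor replicate 3, at 64.6, 61.0 and 51.8. NC inhibitor replicates 1 and 2 were nearest to miR-34c mimic replicate 2, at 49.1 for both, and NC inhibitor replicate 3 to miR-34c inhibitor replicate 3, at 53.1.

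Against the mean of the other 4 treatments, the NC inhibitor group had 4 DE genes of 11082 (0.0361%), all higher with NC inhibitor and all of low level. An unadjusted p below 0.05 was found for 2519 genes (22.7%). The 3 NC inhibitor pools lay below all other 15 pools in 77 genes (0.695%) and above them in 49 (0.442%). Within the genes called between the NC groups, they were the lowest 3 of the series in 13 of the 419 higher with NC mimic and the highest 3 in 12 of the 145 lower. The 4 genes were named after their values were seen, and all 4 are also among the 147 genes lower with NC mimic, a call that rests on the same NC inhibitor pools and is no separate evidence. DESeq2 gave 196 DE genes for this comparison, 192 of them lower with NC inhibitor, with 0 shared, and it returned no adjusted p for any of the 4.

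ENSBTAG00000008389 had 21, 18 and 11 counts in the NC inhibitor pools (5.36, 4.54 and 3.93 CPM) and 0, 0 and 1 in the NC mimic pools. None of the other 12 pools had more than 1 count, and 10 of the 12 had 0. The ratio of NC inhibitor to NC mimic, by depth, was 45.0 with an exact 95% interval of 7.72 to 1813 that covers counting error only. The gene was chosen for this pattern, so ratio and interval are a description.

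ENSBTAG00000012409 had 20, 15 and 11 counts with NC inhibitor (5.11, 3.78 and 3.93 CPM), 2, 4 and 0 counts with NC mimic and 0 counts in all other 12 pools. No count was thus found outside the NC groups at this depth. ENSBTAG00000039035 was at 4.60, 6.30 and 6.44 CPM with NC inhibitor, at 0, 0.363 and 1.08 CPM with NC mimic and at no more than 2.19 CPM elsewhere. ENSBTAG00000007554 was at 5.87, 7.31 and 12.5 CPM with NC inhibitor, at 4.16, 3.99 and 2.43 CPM with NC mimic and at no more than 1.79 CPM in the other 12 pools. For this gene both NC groups were above all other pools. Between the NC groups, with a log2 fold change of NC mimic minus NC inhibitor of -1.29 ± 0.39, the adjusted p in the 6-pool edgeR fit was 0.0175. All 4 passed the filter on low counts only through the NC pools in which they are high, so their adjusted p-values against the other treatments, 0.000184 to 0.0499 in edgeR's quasi-likelihood test, are given as a description. The replicate block ended 3 of the 4 calls at similar log2 fold changes, 3.73 in place of 3.95 for ENSBTAG00000007554 (adjusted p = 0.109), 5.67 in place of 5.65 for ENSBTAG00000012409 (0.338) and 2.90 in place of 2.83 for ENSBTAG00000039035 (0.109). With 1 surrogate variable that of ENSBTAG00000039035 ended (0.0599, edgeR's quasi-likelihood test throughout). Of the 18 fits with 1 pool left out, the call of ENSBTAG00000007554 was lost without NC inhibitor replicate 3, at a log2 fold change of 3.59. The call of ENSBTAG00000039035 held in 13 and that of ENSBTAG00000012409 in 5. Over these fits their log2 fold changes ran from 2.72 to 3.16 and from 5.46 to 5.89.

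**Figure D5:**
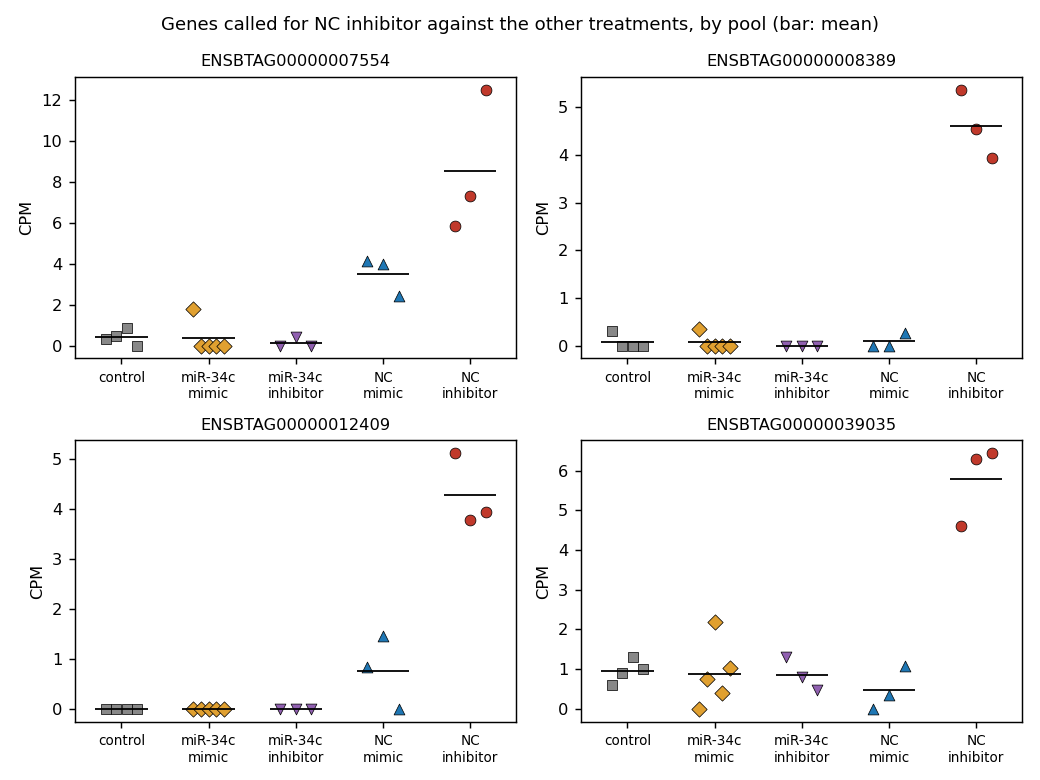
CPM (linear axis) of the 4 genes called for NC inhibitor against the mean of the other treatments, 1 point per pool with the mean of the treatment as a bar. The NC inhibitor pools lie between 3.78 and 12.5 CPM, above every other pool, and in ENSBTAG00000007554 the NC mimic pools come next.

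The NC mimic group had no DE gene against the mean of the other 4 treatments (0%), where edgeR's quasi-likelihood test gave 0.143 as the lowest adjusted p. An unadjusted p below 0.05 was found for 664 genes (5.99%), and DESeq2 gave 5 DE genes. With 1 surrogate variable in the fit the count was 50, with 45 higher and 5 lower. The 3 NC mimic pools lay above all other 15 pools in 27 genes (0.244%) and below them in 32 (0.289%). Of the genes called between the NC groups, they were the highest 3 of the series in 8 of the 419 and the lowest 3 in 9 of the 145.

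Since no gene passed, the 2 largest differences in each direction are given as values. They were taken among genes with an unadjusted p below 0.05, no overlap and at least 50 counts on average. ENSBTAG00000014614 was at 202, 209.5 and 215 CPM with NC mimic, at 105, 119 and 115 CPM with NC inhibitor and from 52.0 to 164 CPM in the other 12 pools (adjusted p = 0.521, edgeR). ENSBTAG00000003920 was at 49.96, 61.3 and 62.9 CPM with NC mimic, at 26.3, 36.3 and 33.6 CPM with NC inhibitor and from 10.9 to 48.5 CPM elsewhere (adjusted p = 0.575, edgeR). In both genes the NC mimic pools were the 3 highest of the 18.

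ENSBTAG00000021119 was at 18.3, 21.8 and 22.4 CPM with NC mimic, at 58.5, 54.2 and 49.7 CPM with NC inhibitor and from 25.9 to 84.4 CPM in the other pools (adjusted p = 0.473, edgeR). ENSBTAG00000011100 was at 10.4, 12.3 and 13.0 CPM with NC mimic, at 30.6, 32.3 and 30.8 CPM with NC inhibitor and from 16.3 to 34.2 CPM in the other pools (adjusted p = 0.473, edgeR). In these 2 genes the NC mimic pools were the 3 lowest, and both were among the 5 that DESeq2 called. Between the NC groups they had log2 fold changes of -1.38 and -1.39 and were DE in the 6-pool fit, with adjusted p-values of 8.59e-06 and 4.52e-05 (edgeR). That call rests on the same NC mimic pools and is no separate evidence. With 1 surrogate variable in the 18-pool fit, the comparison with the other 4 treatments gave all 4 genes a lower adjusted p (edgeR). It was 0.0172 for ENSBTAG00000003920, 0.0156 for ENSBTAG00000014614, 0.00586 for ENSBTAG00000021119 and 0.00956 for ENSBTAG00000011100. ENSBTAG00000014614 was not DE there, since its log2 fold change of 0.89 stayed below 1. All 4 genes were chosen because their NC mimic pools did not overlap the other pools, so these adjusted p-values are a description.

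Both NC groups together differed from the mean of the other 3 treatments in 2 genes (0.018%), with 1935 at an unadjusted p below 0.05 (17.5%). The count was 8 with 1 surrogate variable and 45 (36 higher, 9 lower) without miR-34c inhibitor replicate 1. All 6 NC pools lay above the other 12 in 11 genes (0.0993%) and below them in 6 (0.0541%). One of the 2 was ENSBTAG00000007554. The other, ENSBTAG00000001745, had 13, 21 and 18 counts with NC mimic (5.41, 7.61 and 4.86 CPM) and 24, 30 and 19 with NC inhibitor (6.13, 7.56 and 6.79 CPM). In the other 12 pools it had 0 to 7 counts, at most 2.56 CPM. Both passed the filter on low counts only through the NC pools, and the comparison was chosen after seeing the data, so the adjusted p of 0.00656 for each (edgeR's quasi-likelihood test) is given as a description. Between the NC groups ENSBTAG00000001745 had a log2 fold change of -0.22 ± 0.32 with an adjusted p of 0.660 (edgeR). Neither gene was called without NC mimic replicate 2 or with the replicate block (adjusted p = 0.136 for each, edgeR) and neither was tested with at least 10 counts in every library, while DESeq2 called 4 other genes and returned no adjusted p for either.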

How the data were processed

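Estimated counts for each Ensembl gene in 18 libraries were deposited by the authors as whole numbers without normalization. The submitters' processing notes name cutadapt 3.7, STAR 2.7.10a, UMI-tools 1.1.4, RSEM 1.3.3 and ARS-UCD1.2. RSEM divides reads that match several genes, so near-identical copies are uncertain.

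Counts were rounded and analysed in R 4.3.3 with edgeR 4.0.16 (quasi-likelihood F test, TMM, filterByExpr by treatment, treatment as the only term). NC mimic and NC inhibitor were compared in their 6 pools alone, and each NC group, or both, with the mean of the other treatments in all 18. Log2 CPM used a prior count of 2. Alternatives were other scalings, filters and fits (DESeq2 1.42.0, limma 3.58.1, sva 3.50.0), a replicate block, left-out pools and thinning to 1 depth. The comparison of both NC groups with the other treatments, the held-out pools and the thinning were chosen after seeing the data. So was the fit of all libraries but NC mimic replicate 3. The groups, lists and tests were all chosen with earlier results of these data known. Named genes were the 2 largest differences in each direction without overlap and with at least 50 counts on average, plus the few genes of short counts. The scripts were tested on simulated data. Of 37063 rows of the RefSeq table (ARS-UCD2.0), 0 carried an Ensembl identifier, so no symbols were given and the planned gene lists were not analysed here.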

Additional observations from a re-analysis of the deposited data

Results flagged for a closer look

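One value stood far from the others of its group. In the genes lower with NC mimic, control replicate 1 had 0.293% of its counts, against 0.121% to 0.135% in the other 3 control pools, a gap of 0.921 of the group's range. The NC inhibitor pools were at 0.350% to 0.373% and the NC mimic pools at 0.134% to 0.162%. Of 14 combinations of a measure and a group that were tested, 1 was found, where chance gives about 1 in 20.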

How the results depend on the processing

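The 6-pool count of 566 DE genes between the NC groups was within 1.5 times under library totals (543), median-of-ratios factors (554), no filter (678), voom (541), voom with quality weights (720), thinning (541), DESeq2 (450, with no adjusted p for 50 of the 566) and the replicate block (530, of which 515 were shared). It was 367 with at least 10 counts in every library, 2942 by adjusted p alone, 0 with all 18 libraries, 0 with these but NC mimic replicate 3, and 2 with 18 libraries and 1 surrogate variable. Leaving out 1 pool gave 391 to 851.

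NC inhibitor against the other 4 treatments (4 genes) gave 13 without a filter, 0 with at least 10 counts in every library, 1 with the replicate block, 196 with DESeq2 and 1 to 9 with 1 pool left out (9 without control replicate 1, 1 without NC inhibitor replicate 3, and 2 without NC inhibitor replicate 1 or 2, NC mimic replicate 2 or miR-34c inhibitor replicate 3). NC mimic against the other 4 (0 genes) gave 50 with 1 surrogate variable, 5 with DESeq2, 0 with the replicate block and 0 to 1 with 1 pool left out (1 without miR-34c inhibitor replicate 1). Both NC groups against the other 3 (2 genes) gave 8 with 1 surrogate variable, 6 without a filter, 0 with at least 10 counts in every library, 0 with the replicate block, 4 with DESeq2 and 0 to 45 with 1 pool left out (45 without miR-34c inhibitor replicate 1, 0 without NC mimic replicate 2, 6 without miR-34c mimic replicate 2, 5 without control replicate 1). The cause of these moves was not tested.

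NC pools with the same replicate number did not deviate together (correlations of -0.200, -0.047 and -0.178), so the numbers were not taken to pair the pools. The genes named for a fitted comparison kept their direction under the alternatives run, which did not include ENSBTAG00000053040, ENSBTAG00000000603 and ENSBTAG00000001326. Gene lists were not run, since identifiers could not be paired with symbols. Low counts limit the genes near 5 CPM, which were not tested with at least 10 counts in every library.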
